A study of Drosophila melanogaster with 2 samples.

Results

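The genes described here are 9 genes of the Drosophila melanogaster cell death pathway, namely hid, rpr, grim, skl, Diap1, Dronc, Dark, Drice and Dcp-1, and the chromatin around them bound by the transcription factor Xrp1. They were found by symbol in the gene annotation of the dm6 genome, as 9 of 18164 annotated genes, of which 13945 are protein-coding. A peak was assigned to a gene when its summit lay in the gene or within 2000 bp of it. Between hid, grim, rpr and skl, which lie in a row on chromosome arm 3L, peaks of the 3 intergenic stretches were taken as well. In the list of reproducible peaks, here called conservative as the depositors do, 16 peaks lay at the 9 genes and 39 in the 3 stretches. One peak, at the hid promoter, belonged to both sets, so 54 peaks of 7537 were described. A longer ranked list without a threshold held 99 more peaks at the 9 genes.

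Chromatin of whole embryos aged 8 to 24 hours was precipitated with an antibody to GFP and sequenced (ChIP-seq). The age is that of the source description, and the separate age field gives another number of hours, which was set aside. The flies were transgenic and expressed Xrp1 as a fusion with enhanced green fluorescent protein (eGFP). The labels do not state the promoter or copy number of the transgene, or whether untagged Xrp1 was also present. There was 1 group of 2 biological replicates with no second genotype, stage or mock precipitation analysed here, so no comparison of conditions was possible and no test between groups was made. Only peak lists were at hand, without reads, and sequencing depth is therefore unknown for both replicates. In whole embryos, strong binding in few cells and weak binding in many cannot be told apart. Peak signals are the authors' values, in their units, and serve here to order peaks inside one list.

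In the fly, the decision of a cell to die is made largely at the inhibitor Diap1, a ubiquitin ligase that binds caspases and blocks them. The small proteins Hid, Reaper (rpr), Grim and Sickle (skl) carry an N-terminal motif that binds Diap1 and so frees the caspases. The initiator caspase Dronc is activated on a scaffold of Dark, the fly counterpart of Apaf-1, and then cleaves the effector caspases Drice and Dcp-1. Transcription of hid, rpr, grim and skl is the best known point of control, and the long stretches of sequence between these genes are known to hold elements that act on them, among them one upstream of rpr that p53 binds after irradiation. Xrp1 is a basic leucine zipper protein with an AT-hook, is itself induced by p53, dimerises with Irbp18 and acts in DNA damage and in cell competition.

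Windows reaching 50 bp to each side of the summit show the bound DNA. The hid promoter peak is shown because it was the only conservative peak at the promoter of one of the 4 genes that trigger death. The 3 strongest peaks of the hid-grim stretch, numbered by signal, are shown because no peak of the 3 stretches was stronger. The peak upstream of rpr is shown because it was the strongest of the cluster nearest upstream of that gene, a choice made after its values were seen. The Drice peak is the stronger of those at the single one of the 9 genes on arm 3R. Capitals mark the longest run of A and T in each window, and the sequences are those of the RefSeq dm6 reference on its + strand.
hid promoter peak, chr3L:18185888-18185988, + strand: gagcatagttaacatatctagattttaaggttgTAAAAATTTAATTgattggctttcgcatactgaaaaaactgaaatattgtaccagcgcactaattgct
hid-grim peak 1, chr3L:18281384-18281484, + strand: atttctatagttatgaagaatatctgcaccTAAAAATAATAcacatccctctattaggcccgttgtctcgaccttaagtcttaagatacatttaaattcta
hid-grim peak 2, chr3L:18235981-18236081, + strand: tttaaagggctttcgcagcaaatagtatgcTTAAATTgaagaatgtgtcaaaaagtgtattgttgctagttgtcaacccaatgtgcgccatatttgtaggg
hid-grim peak 3, chr3L:18212308-18212408, + strand: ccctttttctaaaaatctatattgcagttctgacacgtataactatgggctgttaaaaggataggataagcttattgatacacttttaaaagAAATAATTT
rpr upstream peak, chr3L:18403345-18403445, + strand: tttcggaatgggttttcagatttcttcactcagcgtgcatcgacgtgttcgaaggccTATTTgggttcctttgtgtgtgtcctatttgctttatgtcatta
Drice peak, chr3R:29803015-29803115, + strand: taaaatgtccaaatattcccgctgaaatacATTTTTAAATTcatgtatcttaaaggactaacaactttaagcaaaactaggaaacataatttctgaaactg

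The 2 windows at Diap1 that held TTGCATCA are shown next because this word was rare in the list. It joins a half-site of the C/EBP kind to one of the ATF kind, and it stood here on the - strand, so that its reverse complement TGATGCAA is in capitals. In the peak of highest signal at Diap1 the middle of the word lay 20 bp to the right of the summit, and in the other, just beyond the gene's 3' end, 3 bp to the right.
Diap1 strongest peak, chr3L:16046123-16046223, + strand: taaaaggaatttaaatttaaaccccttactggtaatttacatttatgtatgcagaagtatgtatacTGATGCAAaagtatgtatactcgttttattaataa
Diap1 downstream peak, chr3L:16037867-16037967, + strand: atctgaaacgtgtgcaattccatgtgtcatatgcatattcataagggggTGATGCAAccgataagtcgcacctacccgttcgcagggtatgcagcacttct

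Most of the 54 peaks lay in the sequence between hid and skl, outside the genes. From the first to the last base of the 4 genes the region spanned 272198 bp and held 40 conservative summits, or 14.7 per 100 kb (exact 95% Poisson interval 10.5 to 20, counting error only). Arm 3L as a whole had 6.07 per 100 kb (5.78 to 6.36) and the 6 main arms 5.63. Sequence outside genes had a somewhat higher density, at 7.61 per 100 kb (7.08 to 8.17) on arm 3L and 6.82 on the 6 arms. When the arms were cut into 488 tiles as long as this region, the median tile held 15 summits and the fullest 70, and 1.23% of the tiles held at least the 40 of this region. The region was therefore among the most densely occupied of its length but was not the densest.

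The 3 stretches differed in how many peaks they held. The hid-grim stretch of 117.1 kb held 27 summits, or 23.1 per 100 kb (15.2 to 33.6). The grim-rpr stretch of 93.1 kb held 7, or 7.52 per 100 kb (3.02 to 15.5). The rpr-skl stretch of 40.1 kb held 5, or 12.5 per 100 kb (4.05 to 29.1). The intervals of the hid-grim and grim-rpr stretches just overlapped, the density of the grim-rpr stretch was close to that of sequence outside genes on arm 3L, and of the 3 stretches only hid-grim had an interval wholly above that value. Among 1141 tiles as long as the hid-grim stretch the median was 6 summits and the maximum 38, and 0.351% of the tiles held at least 27. All 39 stretch summits lay outside every annotated gene, as did 2787 of the 7534 conservative summits on the 6 arms. The stretches were chosen between genes, so much of this follows from the choice. The hid-grim stretch contains 9 other genes, 4 of them protein-coding, and the share of it that they cover was not computed.

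**Figure D1:**
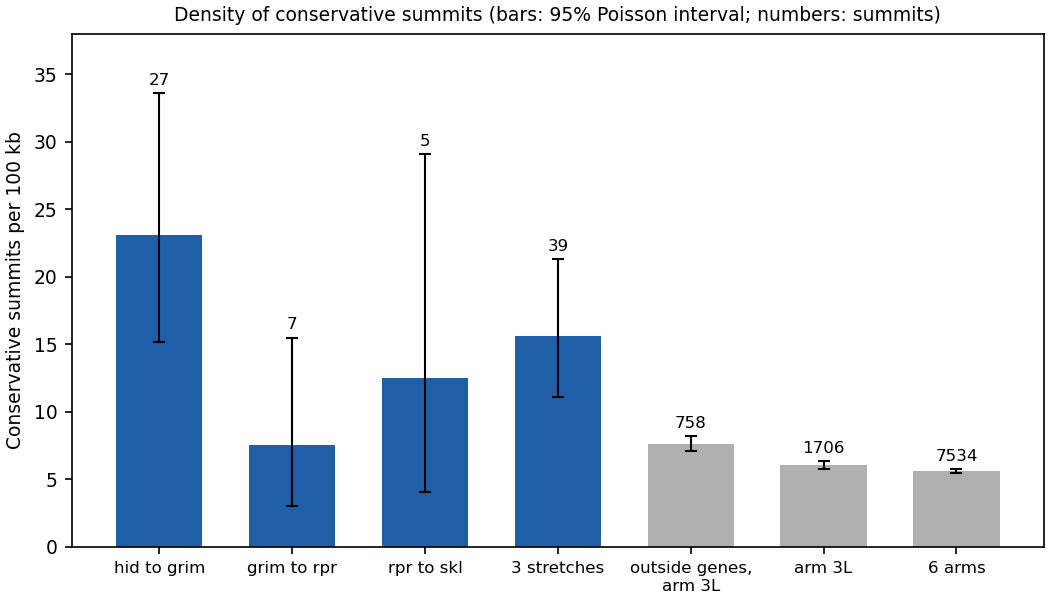
Conservative summits per 100 kb in the 3 stretches between hid, grim, rpr and skl, in the 3 together, and, in grey, in sequence outside genes on arm 3L, on the whole arm and on the 6 arms. Error lines are exact 95% Poisson intervals and the numbers count summits; the hid-grim stretch reached 23.1 per 100 kb, against 5.63 on the 6 arms.

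The full ranked list, conservative peaks included, was denser there too. It had 132 peaks per 100 kb in the 3 stretches, against 67.3 on the 6 arms. Of these ranked peaks, 11.8% in the stretches were conservative, against 8.36% on the arms. The median gap between neighbouring summits from hid to skl was 3.68 kb, against 5.19 kb on arm 3L. The spacing was uneven, and the 3 longest gaps were 34.8, 24.7 and 21.5 kb. The longest of them contained rpr itself, and the next lay between the cluster upstream of rpr and the last peak before skl.

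The highest signals were all far from the 4 genes' promoters except one. The strongest peak (chr3L:18281295-18281583) had a signal of 754, rank 189 of 7537, and lay 95.8 kb upstream of the hid start site and 23 kb downstream of that of grim. Its nearest annotated start site was that of CG5103, 12828 bp away. The peak that followed (chr3L:18235884-18236170) had a signal of 624, rank 274, and lay 50.4 kb upstream of hid, 1271 bp from the long noncoding RNA gene lncRNA:CR45937. The third peak (chr3L:18212265-18212507), at 26.7 kb upstream of hid, had a signal of 472 and rank 490. Its nearest start site was that of CG7320, 10864 bp away. The fourth peak (chr3L:18250793-18250996), with a signal of 406 and rank 665, lay 65.3 kb upstream of hid and 1192 bp from CheA75a.

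The strongest peak between grim and rpr (chr3L:18348637-18348952) had a signal of 382 and rank 739. It lay 44.4 kb upstream of grim, and no annotated start site was nearer than that of lncRNA:CR46353 at 24788 bp. A second peak (chr3L:18349397-18349541), with a signal of 262 and rank 1391, lay beside it. The next conservative peaks to either side were at 143.6 and 172.2 kb from the hid start site. The remaining 4 of the 10 strongest stretch peaks were between hid and grim. The hid promoter peak had a signal of 366 and rank 793. A peak at 50.9 kb (chr3L:18236362-18236688), beside the one of signal 624, had 357 and rank 818. Peaks at 7.4 kb (chr3L:18192938-18193155), nearest to lncRNA:CR45234, and 18.4 kb (chr3L:18203952-18204160), nearest to CG7320, had 335 and 316. Of the 10 strongest, 8 were in the hid-grim stretch, 2 in the grim-rpr stretch and 0 in the rpr-skl stretch, and all 10 were in both replicates' own thresholded lists.

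**Figure D2:**
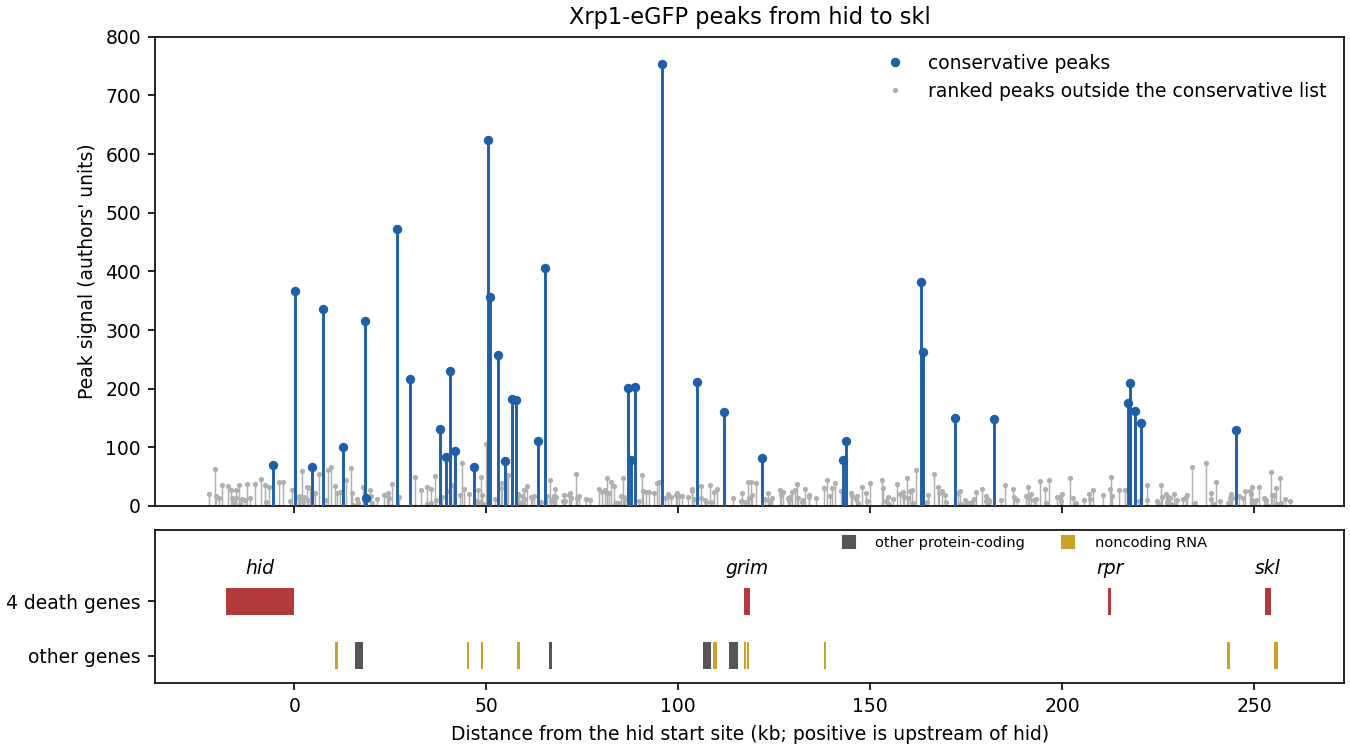
Peak signal (authors' units) against distance from the hid start site in kb, positive upstream of hid, for conservative peaks (blue) and ranked peaks outside that list (grey), above a map of hid, grim, rpr and skl and of the other genes of the region. The strongest conservative peaks stand between hid and grim, with a maximum of 754 at 95.8 kb, and none stands at grim, rpr or skl.

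Of the 39 stretch peaks, 31 lay over 2000 bp and 15 over 5000 bp from any annotated start site. The median distance was 4308 bp. They were chosen between genes that lie far apart, so long distances follow in part from the choice. The distances were not set beside those of other peaks. The nearest start site belonged to one of the 4 death genes for 8 peaks and to a long noncoding RNA gene for 20. The stretches hold several long noncoding RNA genes, so these counts follow in part from the choice as well. They were not set beside those of other peaks. Their signals spanned 14 to 754, with a median of 176, against a median of 123 over all conservative peaks. Of the 39, 13 were in the strongest 25% of the conservative list and 8 in the weakest 25%. The lowest signal, 14, belonged to a peak that overlapped the one of signal 316 and rested on the same peaks of the single replicates, so that merging overlapping peaks left 38 regions.

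The 4 genes that trigger death differed at their own promoters. Only hid had a conservative peak within 500 bp of its start site, as 23.2% of protein-coding genes do. Its summit lay 297 bp upstream of the start site (chr3L:18185824-18186078), with a signal of 366, rank 793 of 7537. In the replicates' own thresholded lists the same site had rank 759 and signal 249 in replicate 1 and rank 920 and signal 119 in replicate 2, each list having its own scale. A second peak at hid lay in an intron, 5667 bp downstream of the start site (chr3L:18179792-18180155), with a signal of 70.0 and rank 6585, and it was in neither replicate's thresholded list. The hid gene (FBgn0003997, chr3L:18167745-18185641, - strand) is 17897 bp long. Of its further ranked peaks, 26 had a global irreproducible discovery rate (IDR, the expected share of irreproducible peaks up to that rank) above 0.05, with a median signal of 15.9 and a maximum of 41.6. The other 2 had an IDR of 0.0413 and 0.0327 and signals of 59.3 and 46.6.

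At rpr, grim and skl no conservative summit lay in the gene or within 2000 bp, as for most protein-coding genes under 3000 bp, of which 32.2% have one. Each had a ranked peak at its promoter that did not pass the threshold on both replicates together. At rpr (FBgn0011706, chr3L:18397535-18398435, - strand) the strongest of 4 ranked peaks had its summit 12 bp upstream of the start site, with a signal of 49.2 and an IDR of 0.601. Replicate 1 had this site in its thresholded list, at rank 6887 of 7520. Its signal there was 42.5, while in replicate 2 it stood at rank 44243 of the 66550 ranked peaks with a signal of 9.47. At skl (FBgn0036786, chr3L:18438561-18439942, - strand) the strongest of 9 ranked peaks was 120 bp upstream of the start site, with a signal of 57.8 and an IDR of 0.6. Its ranks were 7480 of 71329 in replicate 1 and 42489 of 66550 in replicate 2. At grim (FBgn0015946, chr3L:18302719-18304417, - strand) the promoter peak among 8 ranked peaks lay 114 bp upstream, with a signal of 40.5 and an IDR of 0.349. It ranked 11677 in replicate 1 and 31573 in replicate 2. All 3 promoter sites thus ranked higher in replicate 1 than in replicate 2, and the cause was not tested.

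Of the 3 genes without a peak, grim came closest to the 2000 bp limit. The nearest conservative summit upstream of grim was 2960 bp from the start site, with a signal of 82.4 (chr3L:18307195-18307558). Just inside the limit was the peak at Dronc, 1739 bp beyond the gene's end. Upstream of rpr the nearest summit was at 4308 bp, with a signal of 176, and downstream of the start site the nearest was 30451 bp away, with 148. At skl the nearest summits were 21323 bp upstream, with a signal of 378, and 9102 bp downstream, with 129.

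Upstream of rpr 4 conservative peaks formed a cluster within 10000 bp of the start site. Their summits were 4.3, 5.0, 6.1 and 7.7 kb upstream, with signals of 176, 210, 162 and 142. All 4 were in replicate 1's thresholded list. Only the one of signal 210 (chr3L:18403349-18403465) was in that of replicate 2, at rank 1455 of 4402. Its window, printed above, had an A and T content of 57.4%, the lowest value among the stretch peaks, which 1 other shared. None of the 4 windows held the p53 half-site or any other motif searched.

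**Figure D3:**
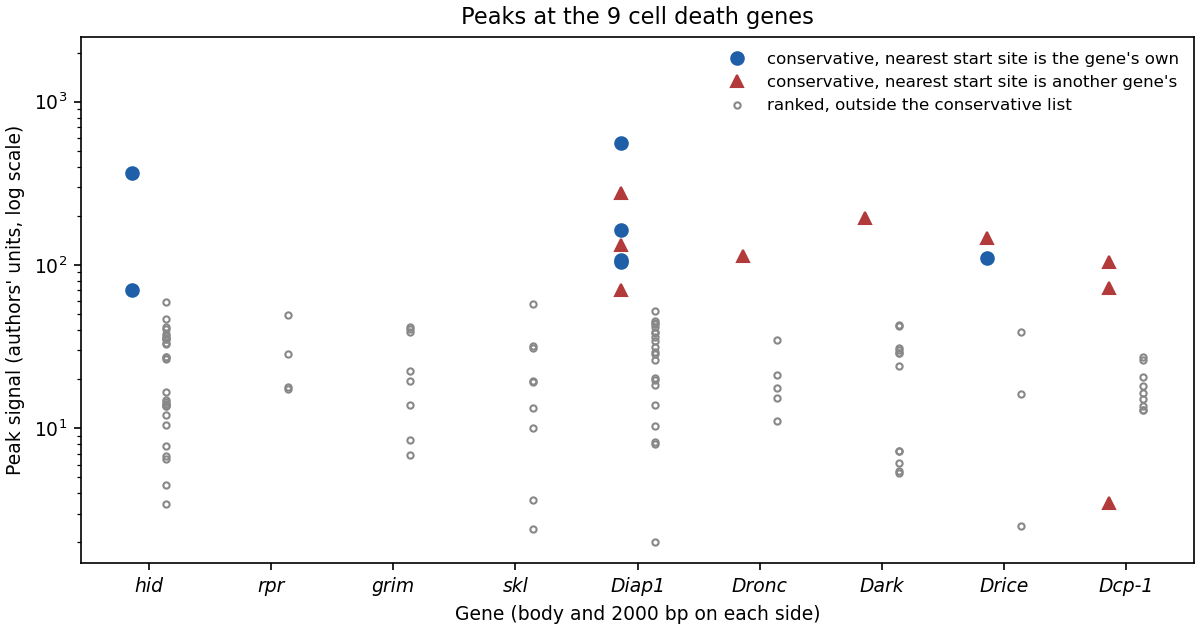
Peak signal (authors' units, log scale) at each of the 9 genes, for conservative peaks (filled; circles where the gene's own start site is the nearest, triangles where another gene's is) and ranked peaks outside that list (open circles). rpr, grim and skl have open circles only, at up to 57.8, while Diap1 and hid hold the highest filled points, at 556 and 366.

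Diap1, the inhibitor, carried the most peaks of the 9 genes. In all, 7 conservative peaks lay at the gene (FBgn0260635, chr3L:16038410-16051034, - strand, 12625 bp with 5 annotated start sites), 5 of them inside it. Among protein-coding genes over 10000 bp, 7.99% had as many, and 66.6% had at least one. The strongest peak (chr3L:16046034-16046330) had a signal of 556, rank 366 of 7537, and ranked 323 in the list of replicate 1 and 427 in that of replicate 2. It lay in an intron, 673 bp downstream of an internal start site. Another intronic peak (chr3L:16043061-16043424), was 673 bp upstream of a different internal start site and had a signal of 163. The remaining intronic peaks had signals of 133 (chr3L:16048125-16048488) and 104 (chr3L:16045301-16045664). The nearest start site to the one of 133 was that of lncRNA:CR43951, 928 bp away.

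At the start of Diap1 the conservative peak (chr3L:16050296-16050659) lay in the 5' UTR, 193 bp downstream of the nearest start site. It had a signal of 108 and rank 4375, and it was in the thresholded list of replicate 2, at rank 2085, but not in that of replicate 1. The most upstream start site itself had only a ranked peak, 32 bp upstream of it, with a signal of 52.3 and an IDR of 0.343. The other 2 peaks lay beyond the 3' end. One of them (chr3L:16037106-16037270), with a signal of 276 and rank 1290, was 1211 bp beyond the end and in the 3' UTR of CG5895. The other (chr3L:16037735-16038098), 493 bp beyond the end, had a signal of 70.7 and rank 6539, and replicate 2's thresholded list lacked it. The 21 ranked peaks outside the conservative list had signals up to 52.3, below all 7 conservative ones.

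**Figure D4:**
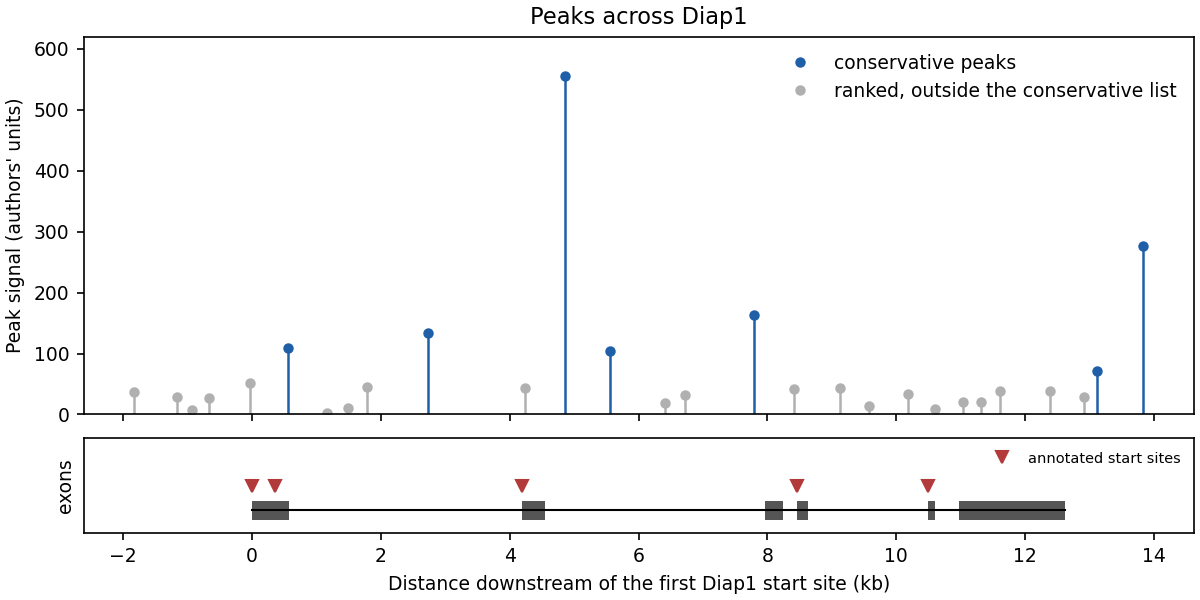
Peak signal (authors' units) along Diap1 against distance downstream of its first start site in kb, for conservative (blue) and ranked peaks outside that list (grey), above the exons and annotated start sites. The highest point, 556, stands in an intron just downstream of the third start site, and the point at the first start site is grey.

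The initiator caspase and its scaffold had peaks at their far ends but none at their own start sites. At Dronc (FBgn0026404, chr3L:9968479-9971002, + strand) the single conservative peak (chr3L:9972559-9972922) had a signal of 113 and rank 4166. It lay 1739 bp beyond the gene's end and 15 bp upstream of the start site of CG42455. The Dronc start site had a ranked peak 64 bp upstream, with a signal of 34.6 and an IDR of 0.571. At Dark (FBgn0263864, chr2R:17020027-17026703, + strand) the conservative peak (chr2R:17026885-17026998) had a signal of 193 and rank 2100. It lay 243 bp beyond the gene's end, in the antisense RNA gene asRNA:CR44390 and 47 bp downstream of that gene's start site. It ranked 2123 in replicate 1's list and 1973 in that of replicate 2. The start of Dark had a ranked peak 182 bp downstream, with a signal of 42.7 and an IDR of 0.0598. This is above the conservative list's limit of 0.01 and also above the looser limit of 0.05.

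The effector caspase genes had promoter peaks of low rank. At Drice (FBgn0019972, chr3R:29799658-29801584, + strand) a conservative summit lay 51 bp upstream of the start site (chr3R:29799425-29799788). It had a signal of 111 and rank 4268 but was in neither replicate's thresholded list, with ranked signals of 66.9 in replicate 1 and 43.7 in replicate 2. A stronger peak (chr3R:29802883-29803246), with a signal of 147 and rank 3023, lay 1481 bp beyond the gene and 120 bp upstream of Etfb. At Dcp-1 (FBgn0010501, chr2R:23551313-23553547, + strand) the promoter peak (chr2R:23551251-23551614) lay 120 bp downstream of the start site, in the 5' UTR. A start site of pita was 118 bp from the same summit. The peak had a signal of 72.0 and rank 6440, was in neither replicate's thresholded list and was missing from the second list of both replicates. The strongest peak at Dcp-1 (chr2R:23554437-23554800), with a signal of 104, lay 1072 bp beyond the gene in the 5' UTR of pita. The third peak (chr2R:23554638-23555001) had a signal of 3.47, overlapped it and rested on the same peaks of the single replicates.

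Across the 9 genes, 6 (66.7%, Wilson 95% interval 35.4 to 87.9) had a conservative summit in the gene or within 2000 bp, against 41.5% of all protein-coding genes. The share grows with gene length, so the members were read by length class. Of the 6 genes under 3000 bp, Dronc, Drice and Dcp-1 had one and rpr, grim and skl had none, against 32.2% of protein-coding genes of that length. Dark had one, against 50.7% of genes of 3000 to 10000 bp. Both genes over 10000 bp, hid and Diap1, had one, against 66.6% of such genes. A summit within 500 bp of the gene's own start sites was found at 4 of the 9, namely hid, Diap1, Drice and Dcp-1, against 23.2% of protein-coding genes. The interval of the share over the 9 genes is wide and includes the 41.5% of all protein-coding genes. It treats chosen genes as independent draws, so it was not read as a test and no conclusion was drawn from it.

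Many of the 16 peaks at the 9 genes were closer to a neighbour. For 7 peaks, at hid, Diap1 and Drice, the nearest annotated start site was the gene's own, and for 9 it was another gene's. The peaks at Dronc, Dark and Dcp-1 all belonged to the second kind. By annotation, 6 of the 16 summits lay in introns, 5 between genes, 3 in a 5' UTR, 1 in a 3' UTR, 1 in another exon and 0 in coding sequence. Within 500 bp of any annotated start site lay 9 of the 16, against 2 of the 39 stretch peaks. The 2 sets were chosen at genes and between genes, so this difference follows in part from the choice. The counts by nearest start site and by annotation were not set beside those of all conservative peaks. They were therefore not read as a trait of the members. Of the 16, 3 were in the strongest 25% of the conservative list, against 13 of the 39 stretch peaks.

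Most of the 54 peaks were found in both replicates' own lists. Of all 54 peaks, 83.3% were in replicate 1's own thresholded list, against 81.7% of all conservative peaks. Replicate 2's list, with 4402 peaks against 7520 in replicate 1, held 66.7% of the 54, against 54.9% of all. Both lists held 63.0% of the 54, against 51.3% of all conservative peaks, and neither held 13.0%, against 14.7%. Of the 39 stretch peaks, 24 were in both lists, 10 in that of replicate 1 only, 1 in that of replicate 2 only and 4 in neither. Replicate 2's list, taken alone, had 24 summits in the stretches, against 39 in the conservative list. The ratio of the density from hid to skl to that of the arms was 2.68 with replicate 2's list, 2.75 with replicate 1's and 2.61 in the conservative list.

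**Figure D5:**
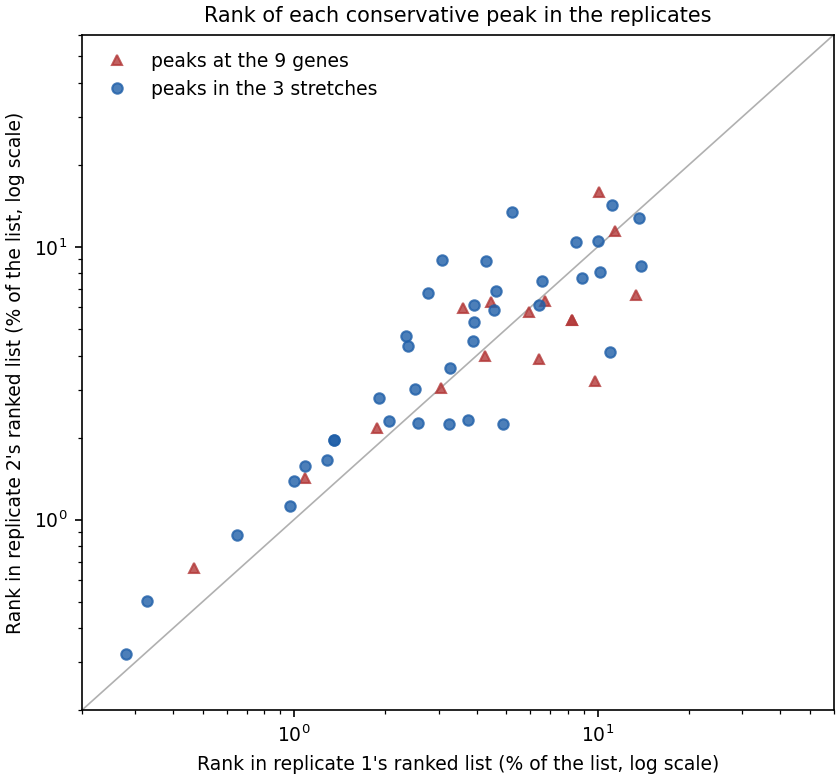
Rank of each of the 54 conservative peaks in replicate 2's ranked list against that in replicate 1's, both as percent of the list on log axes, for peaks at the 9 genes (triangles, the hid promoter among them) and in the 3 stretches (circles). The strongest peaks stand near the diagonal, from about 0.28% of replicate 1's list and 0.323% of that of replicate 2, and the weaker ones scatter around it.

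The windows around the summits were rich in A and T. The median share was 69.8% (52.5 to 77.2) at the 16 member peaks and 74.3% (57.4 to 83.2) at the 39 stretch peaks. The medians were 68.3% over all conservative peaks and 57.4% over windows of the arms. All windows of the 3 stretches, bound or not, had a median of 61.4%, so the bound windows of the stretches were richer than the sequence around them. The longest run of A and T had a median of 13 bp at member peaks and 12 bp at stretch peaks, against 10 bp over all conservative peaks, 9 bp over all windows of the stretches and 8 bp over windows of the arms. The longest run among the stretch peaks was 41 bp, in the peak 57.7 kb upstream of hid.

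Motifs of leucine zipper factors and of other regulators were found in few windows. On both strands of the windows, 11 motifs were searched: TTGCGCAA, TTGCNNAA, TTGCATCA, TTGCGTCA, TGACGTCA, TGACGCAA, the AP-1 site TGAGTCA, the E-box CACGTG, the GAGA factor's GAGAG, DREF's TATCGATA and the p53 half-site. A match to TTGCGCAA is also one to TTGCNNAA, and TTGCGTCA and TGACGCAA are reverse complements and so count the same sites. At least one was in 10 of the 54 windows (18.5%), against 22.6% of all conservative windows. TTGCNNAA was in 5 windows (9.26%), against 9.0% of all conservative windows and 8.50% of all windows of the arms. One of the 5 was at Diap1, in the intronic peak of signal 104, one at Drice and 3 in the hid-grim stretch. These shares were close to the background.

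TTGCATCA was in 2 of the 54 windows, both at Diap1, while only 20 of the 7534 conservative windows on the arms held it (0.265%), against 0.338% of all windows of the arms. The strongest Diap1 peak was one of them. The p53 half-site was in 1 window, with its middle 44 bp from the summit of the hid-grim peak of signal 357, against 2.14% of conservative windows and 1.74% of windows of the arms. GAGAG was in 2 windows of the hid-grim stretch, against 10.2% and 11.4%. TATCGATA was in 1 window, that of the weak peak by pita, against 1.21% and 0.275%. The other 6 motifs were in none of the 54.

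Other cell death genes were taken from a list of 39 by role. Of 37 matched in the annotation, 27 (73.0%, Wilson 95% interval 57 to 84.6) had a conservative summit in the gene or within 2000 bp. The share was 41.5% of all protein-coding genes, whatever their length, and 6 of the 9 members. The interval treats genes as independent draws, which a chosen list is not, so it was not read as a test. Under 3000 bp the count was 13 of 17, against 3 of 6 members of that length and 32.2% of protein-coding genes. From 3000 to 10000 bp it was 7 of 11, against 50.7%, and over 10000 bp 7 of 9, against 66.6%. Of the short genes, mir-ban codes for no protein. The list was chosen with earlier results of these data known and no test was made on it. As for the members, many peaks lay nearer to another gene, since the gene's own start site was nearest to the strongest peak for 7 of the 27. This count was not set beside that of all genes.

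By role, 5 of 6 genes of further caspase inhibitors and of inhibitor turnover had a peak. These were 3 of 4 under 3000 bp and 2 of 2 over 10000 bp, against 32.2% and 66.6% of protein-coding genes. The strongest signals in this role were 343 at dnr1, 198 at Diap2, 165 at Det and 157 at Bruce. Each of these peaks was nearest to another gene's start site, namely px, bdg, CG5292 and sle. Those at dnr1 and Diap2 lay in introns of px and bdg. Of 4 further caspases, all under 3000 bp, only Decay had one, against 32.2% of genes of that length. Its strongest peak had a signal of 386 and rank 724 and was nearest to the start site of Gr89a. Dredd, Strica and Damm, named here after their values were seen, had none. Of 4 genes of the Bcl-2 family and cytochrome c, 3 had a peak. These were 1 of 1 under 3000 bp and 2 of 3 of 3000 to 10000 bp, against 32.2% and 50.7% of protein-coding genes. The neighbouring cytochrome c genes Cyt-c-d and Cyt-c-p had signals of 870 and 717, above every peak at the 9 members. The one at Cyt-c-d was nearest to the start site of CG31808. The Bcl-2 family gene Debcl had 87.4, nearest to the start site of Opbp.

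Of 14 upstream signals, 13 had a peak, namely 5 of 5 genes under 3000 bp, 4 of 4 of 3000 to 10000 bp and 4 of 5 over 10000 bp, against 32.2%, 50.7% and 66.6%. The highest were 584 at mei-41, the fly ATR kinase, 396 at puc, the phosphatase that restrains JNK, 379 at the microRNA gene mir-ban and 249 at egr, the fly TNF ligand. Each of these peaks was nearest to another gene's start site, namely TH1, lncRNA:CR44331, lncRNA:CR43334 and snoRNA:Or-ACA6. Those of puc and egr lay inside the gene. The puc gene had 8 conservative peaks. The p53 gene, named after its values were seen, had 1, with a signal of 221 and rank 1746, nearest to the start site of CG17121. Of 9 genes of corpse clearance and DNA breakdown, 5 had a peak. These were 3 of 3 genes under 3000 bp, 1 of 4 of 3000 to 10000 bp and 1 of 2 over 10000 bp. The shares of protein-coding genes of these lengths were 32.2%, 50.7% and 66.6%. The highest signal was 484 at mbc, a gene for engulfment with 7 peaks. Drep4, EndoG and DNaseII had 200, 169 and 120, the one at Drep4 being nearest to the start site of Uvrag.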

How the data were processed

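Per the labels, 1 group with 2 biological replicates was assayed by ChIP-seq for Xrp1-eGFP. The deposited notes record alignment to dm6, peak calling with a control and ranking by IDR, while tool names and versions were not given in the sources used. Signal is the authors' deposited peak signal, with no scaling stated. The score is that of the authors' IDR step, and the deposited ranked lists give -log10 of the global IDR, which was turned back to the IDR. The conservative list (7537 peaks) holds peaks up to a global IDR of 0.01. Alternatives were a second list of both replicates (8735), the list of each replicate (7520 and 4402) and ranked peaks at an IDR of 0.05 or 0.005. The lists hold no counts, so depth is unknown, and intervals cover counting error only.

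Genes came from Ensembl release 115, and 9 of 9 members had the same coordinates in the RefSeq annotation of the sequence used. Of the conservative peaks, 3 off the 6 arms were left out. Replicate values come from peaks of each replicate's own lists that overlap by at least 1 bp. No test was made, since there was 1 group.

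The members and lists were chosen with earlier results of these data known. Named were all 9 members, the 10 strongest stretch peaks with their nearest genes, and up to 4 other cell death genes per role by strongest peak. Base content and density ratios were added after the data were seen. Python 3.11.15, NumPy 2.4.6, SciPy 1.17.1 and matplotlib 3.10.9 were used, and the procedures were tested on simulated data.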

Additional observations from a re-analysis of the deposited data

How the results depend on the processing

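Of 63 recomputed values, 14 moved by over 1.5 times (counts and densities) or by more than the SD between the replicates' ranks (ranks), and 49 did not. For ranks, the SD came from the same single-replicate values that were then judged by it. Those labels follow in part from the rule and do not measure robustness. The number of members with a peak was 6 in most settings. It was 7 with replicate 1's list alone, which added rpr, 8 with 5000 bp on each side, which added rpr and grim, 5 with 500 bp, which lost Dronc, and 4 within 500 bp of a start site. The peaks at the 9 genes numbered 11 with 500 bp and 23 with 5000 bp on each side. Within 500 bp of a start site they numbered 4 in place of 16, and the other cell death genes with a peak 15 in place of 27. With 1 replicate left out the stretch peaks ranged from 24 (without replicate 1) to 42, against 39, and the density from hid to skl from 8.82 to 15.4 per 100 kb, against 14.7. The median rank of the members' strongest peaks, as percent of the list, was 51.6 without replicate 1, 34.0 without replicate 2 and 29.4 in the second list, against 34.0. Replicate 2's own list is shorter. When windows reached 100 bp to each side of the summit, 8 of the members' 16 held a motif, against 5. No paired analysis was possible because only 1 group was assayed. Depth is unknown, so a site absent from a list only failed to pass its threshold, and whether it was bound cannot be told.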

Other observations

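The second thresholded list of both replicates held 10 peaks at these genes or in the stretches that overlap no conservative peak. Of these, 6 were between hid and grim, 1 between grim and rpr, 1 between rpr and skl, and 2 just upstream of Dark, in Paip1. Their signals in that list spanned 29 to 105. The highest, 105 (chr3L:18235279-18235642), lay 701 bp upstream of lncRNA:CR45937, close to the conservative peaks of signal 624 and 357. The peak between grim and rpr, with a signal of 61.1, held TGAGTCA, which was in none of the 54 conservative windows.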
